A study of Homo sapiens with 6 samples.

Results

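Iron-sulfur clusters are small inorganic cofactors that many enzymes need to move electrons or to hold their shape. They are first built in mitochondria, where sulfur taken from cysteine is joined to iron on a scaffold protein, and a separate cytosolic machinery then supplies clusters to proteins of the cytosol and nucleus, among them DNA polymerases and helicases. In a dividing cell, loss of either machinery can therefore reach respiration, DNA replication and DNA repair.

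The 9 genes described here are assembly factors of both machineries, taken by name from a genome-wide knockout library. They make up 9 of its 19364 genes and 36 of its 77441 guide RNAs (gRNAs), with 4 gRNAs for each gene. Of the 9, 5 act in mitochondria (NFS1, ISCU, LYRM4, HSCB and GLRX5, with 20 gRNAs) and 4 act in the cytosol (CIAPIN1, NUBP1, MMS19 and FAM96B, with 16 gRNAs). The gRNA sequences were not used here and are not shown.

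IMR32 is a human neuroblastoma cell line, and the cells expressed the nuclease Cas9 and carried the Brunello gRNA library in all 3 conditions. Cells were grown alone, together with human lymphocytes from which CD14 cells had been removed, or together with such lymphocytes and 10 µg/ml of nivolumab, an antibody that blocks the immune checkpoint receptor PD-1. Cancer cells that still adhered on day 5 were harvested, and the gRNAs in their genomic DNA were sequenced, with 2 libraries per condition and 6 in all. The 2 libraries of a condition belong to 2 screens with different lymphocyte donors and, per the study's results, a high or a low ratio of lymphocytes to cancer cells. Which screen had the high ratio is not given in the sources used here. The harvest day is that of the labels and supplementary methods, and the study's main text gives another length of coculture.

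Reads of a gRNA measure how frequent the cells carrying it were, not the expression of a gene, so that markers of the cell type could not be checked. No library of the plasmid pool or of an early time point was used here, and the starting amount of each gRNA is therefore unknown. As a yardstick, each gene was set against the 1496 gRNAs of 374 olfactory receptor genes, a family that cells outside the nose are not known to need. The gene score is the median over a gene's gRNAs of the log2 normalized reads, minus the median of the olfactory receptor gRNAs in the same library. The same quantity is also given as relative abundance, in percent of the olfactory receptor median. The values of a library are whole multiples of a step, and the number of steps was taken as an estimate of depth on the assumption that a step stands for 1 read. Totals ran from 58554842 to 79924251 steps per library, and the 36 gRNAs had between 57 and 2136 steps in any library, with a median of 481.5.

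Cells with a knockout of an assembly factor were less frequent than cells with an olfactory receptor knockout for 8 of the 9 genes, as was the case for 70.2% of all genes that are not olfactory receptors. The median over the 9 genes was 46.1% of the olfactory receptor median (gene score -1.12), beside 86.2% (-0.21) over all genes. A gene was called low when its score lay below the 5th percentile of the olfactory receptor genes in every library, a limit between 57.4% and 63.4% depending on the library. By that rule 6 of the 9 genes were low (66.7%), against 9.72% of the 18990 genes of the library that are not olfactory receptors and 13 olfactory receptor genes (3.48%). They were 3 of the 5 mitochondrial genes (NFS1, LYRM4 and GLRX5) and 3 of the 4 cytosolic genes (NUBP1, MMS19 and FAM96B). With the 1st percentile of the olfactory receptor genes as the limit, 0 of the 9 genes and 1.44% of the genes that are not olfactory receptors were low. The 6 low genes thus lay within the range that a few olfactory receptor genes also reached. By mean score the lowest olfactory receptor genes were OR7E24 (-2.06), OR4F29 (-1.87) and OR4F21 (-1.48). Few genes set the 1st percentile, and whether gRNAs of olfactory receptor genes match other sites in the genome was not checked.

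**Figure D1:**
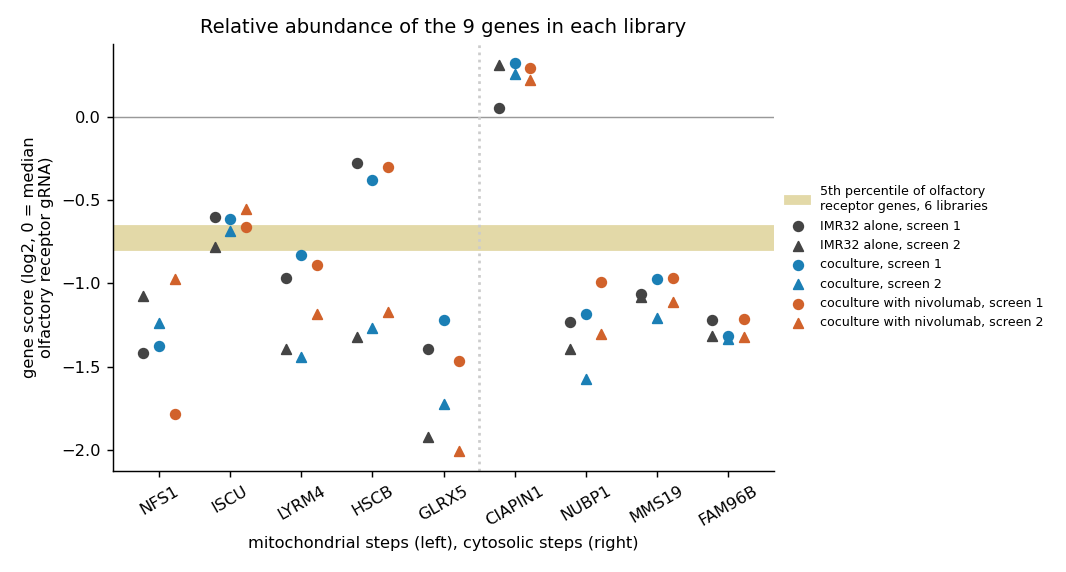
Gene score (log2, 0 marks the median olfactory receptor gRNA) of the 9 genes in each of the 6 libraries, with colour for the condition, circles for screen 1 and triangles for screen 2, and a band over the range of the olfactory receptor limit in the 6 libraries. GLRX5 had the lowest mean, -1.62, though NFS1 lay lower in screen 1. CIAPIN1 alone lay above 0 in all 6 libraries, and the circles and triangles of HSCB were furthest apart.

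In mitochondria the pathway starts with NFS1, the cysteine desulfurase that supplies the sulfur, and NFS1 was among the lowest of the 9 genes. Relative abundance of NFS1 was 37.5% and 47.5% in cells alone (screens 1 and 2), 38.6% and 42.3% in coculture, and 29.0% and 51.0% with nivolumab. Its mean score was -1.31 ± 0.29 (SD over 6 libraries), at the 3.27 percentile of all genes. LYRM4, a small protein that binds and stabilises NFS1, had 51.1% and 38.0% in cells alone, 56.4% and 36.8% in coculture, and 54.0% and 44.1% with nivolumab. The mean score of LYRM4 was -1.12 ± 0.26 (SD, n = 6 libraries), and its highest library lay only 0.06 below the limit (margin -0.06), which made it the gene just inside the rule. NFS1 lies on chromosome 20 (35668052 to 35699355, minus strand) and LYRM4 on chromosome 6 (5103629 to 5260950, minus strand) of GRCh38. These and the positions below are whole gene spans from the annotation, not cut sites.

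ISCU is the scaffold on which the cluster is put together, and it lay just outside the rule. Its relative abundance was 65.9% and 58.1% in cells alone, 65.4% and 62.2% in coculture, and 63.3% and 68.2% with nivolumab. ISCU was below the limit in 1 of 6 libraries, by a margin of -0.02, and its mean score was -0.65 ± 0.08 (SD, n = 6 libraries), at the 19.5 percentile of all genes. The gene spans 108562582 to 108569368 on the plus strand of chromosome 12. Its 4 gRNAs were at 156%, 60.3%, 59.9% and 53.2% of the olfactory receptor median, so that 1 of the 4 marked cells more frequent than the controls in all 6 libraries.

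GLRX5, a glutaredoxin that receives the finished cluster and hands it on to mitochondrial proteins, had the lowest mean score of the 9 genes. Its values were 38.0% and 26.4% in cells alone, 43.0% and 30.3% in coculture, and 36.2% and 24.9% with nivolumab, all of them below the limit. The mean score was -1.62 ± 0.31 (SD, n = 6 libraries), at the 1.23 percentile of all genes and ranked 239 from the lowest. In each condition the screen 2 library was the lower one. GLRX5 was not the lowest in screen 1, where NFS1 was lower in every library (37.5%, 38.6% and 29.0%). In the coculture of screen 1 FAM96B (40.3%) was lower as well. The gRNAs of GLRX5 spread over 2.66 on the log2 scale, the widest range among the 9 genes, from 11.8% for GLRX5_1 to 75.0% for GLRX5_3. The median range over all genes was 1.24. GLRX5_1 also had the fewest reads of the 36 gRNAs, with 57 steps in coculture of screen 2. The gene lies on chromosome 14 (95533503 to 95544724, plus strand).

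HSCB is the cochaperone that works with the mitochondrial chaperone HSPA9 to release the cluster from ISCU, and its values split by screen. Relative abundance of HSCB was 82.3%, 76.8% and 81.3% in the 3 libraries of screen 1 (alone, coculture and nivolumab) and 40.1%, 41.6% and 44.4% in those of screen 2. All 3 libraries of screen 2 were below the olfactory receptor limit and none of screen 1 was, so HSCB was not called low. Its mean score over the 6 libraries, -0.79 ± 0.51 (SD), therefore describes neither screen. HSCB lies on chromosome 22 (28742039 to 28757515, plus strand).

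In the cytosol, NUBP1 forms with NUBP2 the scaffold on which clusters are held for nuclear and cytosolic proteins. NUBP1 had 42.6% and 38.1% in cells alone, 44.1% and 33.6% in coculture, and 50.4% and 40.5% with nivolumab. The mean score was -1.28 ± 0.20 (SD, n = 6 libraries), at the 3.61 percentile. NUBP1_2 and NUBP1_4 carried the low score, at 27.9% and 29.4%, while NUBP1_1 and NUBP1_3 were at 68.6% and 54.7%. NUBP1 lies on the plus strand of chromosome 16 between 10743786 and 10769351.

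MMS19 and FAM96B (now CIAO2B) belong to the targeting complex that, with CIAO1, brings the cluster to its recipient proteins, and they were the steadiest of the low genes. MMS19 had 47.9% and 47.2% in cells alone, 50.9% and 43.4% in coculture, and 51.2% and 46.3% with nivolumab, a mean score of -1.07 ± 0.09 (SD, n = 6 libraries). FAM96B had 42.9% and 40.2%, then 40.3% and 39.7%, then 43.2% and 40.1% in the same order, a mean score of -1.29 ± 0.05 (SD, n = 6 libraries). The 4 gRNAs of FAM96B also lay closest together among the 9 genes, between 33.2% and 49.4%, a range of 0.57 on the log2 scale. MMS19 spans 97458324 to 97498794 of chromosome 10 and FAM96B spans 66932065 to 66934423 of chromosome 16, both on the minus strand.

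CIAPIN1, the electron carrier that works with the reductase NDOR1 at an early cytosolic step, was the exception. Its relative abundance was 103.7% and 123.9% in cells alone, 124.8% and 119.5% in coculture, and 122.5% and 116.3% with nivolumab, above the olfactory receptor median in all 6 libraries. The mean score was 0.24 ± 0.10 (SD, n = 6 libraries), at the 88.3 percentile of all genes. The gRNAs of CIAPIN1 differed widely: CIAPIN1_1 and CIAPIN1_3 were at 176% and 188%, CIAPIN1_2 at 82.2% and CIAPIN1_4 at 46.2%. CIAPIN1_3 had 1876 and 2030.1 normalized reads in cells alone, while CIAPIN1_4 had 478 and 427. The gene score, a median, fell in the gap between these gRNAs, and the mean over the 4 gRNAs gave 0.08. Whether each gRNA cut its gene was not measured. CIAPIN1 lies on chromosome 16 (57428187 to 57447420, minus strand).

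Ordered from the lowest mean score, the genes ran GLRX5, NFS1, FAM96B, NUBP1, LYRM4, MMS19, HSCB, ISCU and CIAPIN1. Neighbours in this order overlapped in their ranges over the 6 libraries up to ISCU, and only the step from ISCU to CIAPIN1 was wider than both ranges. The order of neighbours among the first 8 genes is therefore not settled by these libraries.

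Over single gRNAs, 32 of the 36 had a mean below the olfactory receptor median, against 63.5% of all gRNAs that do not target olfactory receptors. The other 4 were ISCU_1, HSCB_2, CIAPIN1_1 and CIAPIN1_3. Below the 5th percentile of the olfactory receptor gRNAs in every library, a limit between 38.2% and 41.0%, were 6 of the 36 gRNAs, against 6.32% of the 75945 gRNAs that do not target olfactory receptors. These 6 were NFS1_3, LYRM4_1 and GLRX5_1 of the mitochondrial genes and NUBP1_2, NUBP1_4 and MMS19_3 of the cytosolic genes. LYRM4_1 stood apart from its companions, at 16.3% beside 42.2% to 65.6% for the other 3 gRNAs of LYRM4. No gRNA of ISCU, HSCB, CIAPIN1 or FAM96B was low by this rule, although FAM96B was low as a gene. The gRNAs to a gene share their target and are not replicates of each other.

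**Figure D2:**
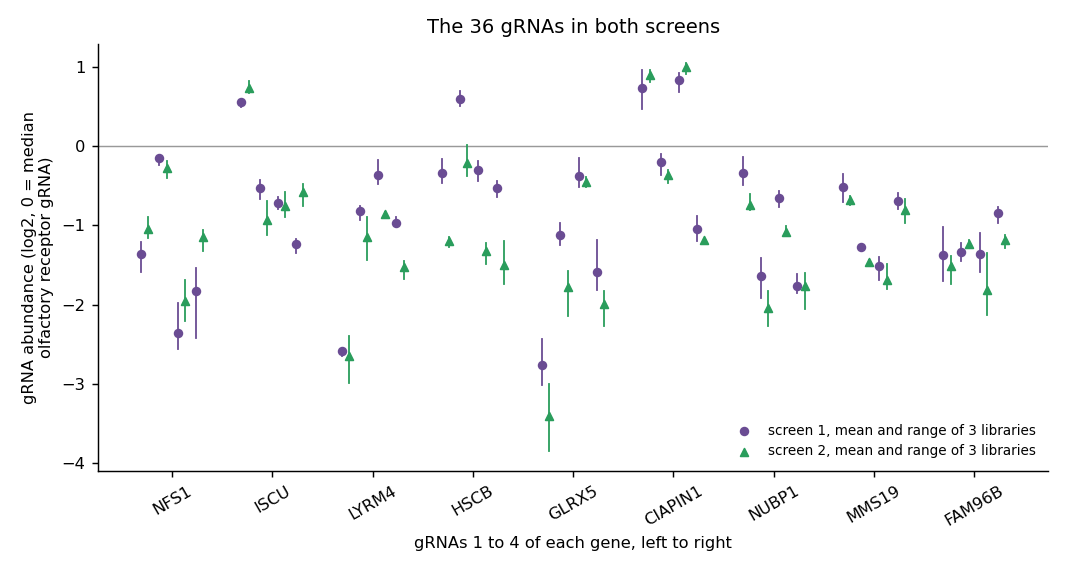
Abundance of each of the 36 gRNAs relative to the olfactory receptor median (log2), with gRNAs 1 to 4 of a gene from left to right, markers for the mean and lines for the range of the 3 libraries of screen 1 (circles) and screen 2 (triangles). All 4 gRNAs of HSCB were lower in screen 2, the gRNAs of FAM96B lay close together, and those of CIAPIN1 lay on both sides of 0.

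The medians of the mitochondrial and cytosolic steps lay close together. The median over the 5 mitochondrial genes was -1.12 and that over the 4 cytosolic genes -1.17. The mitochondrial minus the cytosolic median was 0.17 and -0.12 in cells alone, 0.25 and 0.00 in coculture, and 0.09 and 0.04 with nivolumab, for screens 1 and 2. Its mean was 0.07 ± 0.13 (SD, n = 6 libraries), smaller than the spread between libraries, with 5 of the 6 values above 0. Leaving CIAPIN1 out of the cytosolic genes gave 0.15 ± 0.13. The genes are not replicates of a compartment, and no test was made.

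Several of the genes differed more between the screens than between the conditions. The mean score of HSCB was 0.93 lower in screen 2 than in screen 1 (difference -0.93 ± 0.09, SD over 3 conditions), a relative abundance of 42.0% against 80.1%, or 1.91-fold. The difference was -1.04 in cells alone, -0.88 in coculture and -0.87 with nivolumab, and HSCB ranked 11 from the lowest of 19364 genes. All 12 pairs of an HSCB gRNA and a condition were lower in screen 2, with differences from -1.30 to -0.55. HSCB_2, for example, had 1402, 1498 and 1600.1 normalized reads in screen 1 and 760.4, 808 and 996 in screen 2, and HSCB_4 had 727, 710.3 and 633 against 329.7, 295 and 432. Only HSCB among the 9 genes had all its pairs lower, beside 1.39% of the 19357 genes with 4 gRNAs.

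GLRX5 and LYRM4 differed in the same direction. GLRX5 was lower in screen 2 by -0.53, -0.51 and -0.54 in the 3 conditions, with 11 of its 12 pairs lower, a relative abundance of 27.1% against 39.0%. LYRM4 had a mean difference of -0.44 ± 0.16 (SD over 3 conditions), also with 11 of 12 pairs lower. NUBP1 followed with -0.29 and 10 of 12 pairs. The differences of MMS19 (-0.13), FAM96B (-0.07), ISCU (-0.05) and CIAPIN1 (0.04) were below the SD over all genes of 0.16.

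NFS1 went the other way. Its score was higher in screen 2 by 0.34 in cells alone, 0.13 in coculture and 0.81 with nivolumab, a mean of 0.43 ± 0.35 (SD over 3 conditions) that ranked 17 from the highest of all genes. Of its 12 pairs, 3 were lower in screen 2. LYRM4, whose product binds that of NFS1, thus had a difference of the opposite sign in all 3 conditions.

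In all, 6 of the 9 genes were lower in screen 2 in all 3 conditions, beside 23.9% of all genes and 40.6% of the genes called low, and 1 was higher, beside 22.3%. Lower by over 0.5 in every condition were 2 of the 9, HSCB and GLRX5, beside 0.532% of all genes. The 3 libraries of a screen may share their transduced cells, so the 3 differences of a gene are not independent, and no test was made. The cells were transduced in duplicate, and lymphocyte donor and ratio differed with the screen. The libraries of cells alone held no lymphocytes, and the differences there were -1.04 for HSCB and -0.53 for GLRX5. In the cocultures the features of a screen cannot be told apart. The SD over the olfactory receptor genes was 0.38 to 0.39 in the libraries of screen 1 and 0.43 in those of screen 2, and genes called low had a median difference of -0.10. The part of either in the values above was not tested.

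**Figure D3:**
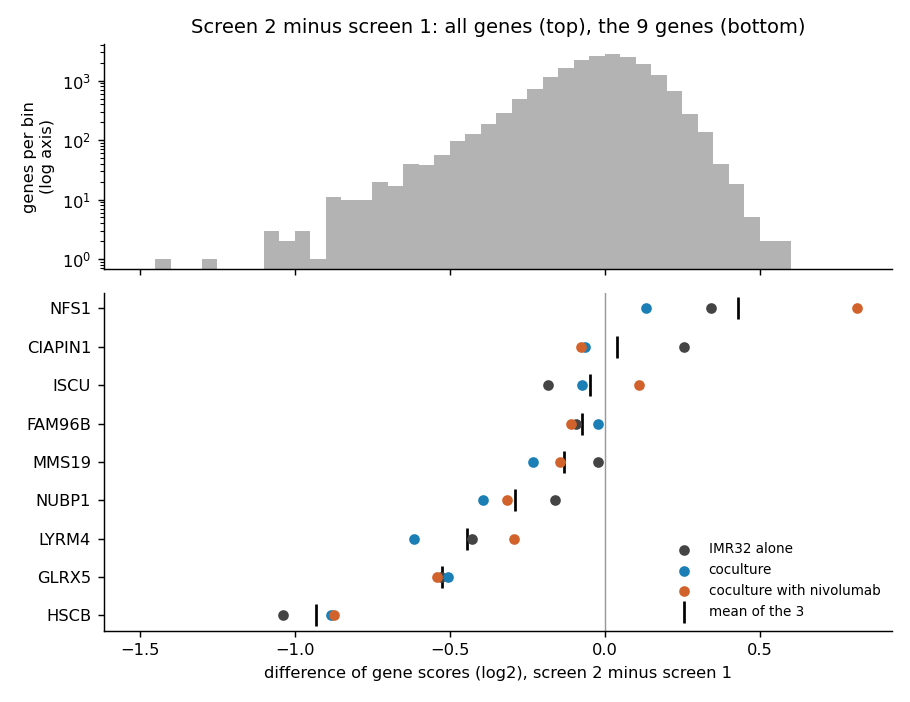
Difference of gene scores, screen 2 minus screen 1 (log2): the upper panel counts all genes by their mean difference on a log axis, and the lower panel shows the 9 genes with 1 point per condition and a bar at the mean. HSCB at -0.93 and NFS1 at 0.43 lay near opposite ends of the distribution, and the 3 conditions of HSCB and GLRX5 lay close together.

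Some other assembly factors of the library also differed between the screens. Among 8 further cytosolic factors, 4 were lower in screen 2 in all 3 conditions and 2 were higher, beside 23.9% and 22.3% of all genes. Lower by over 0.5 in every condition were 3 of the 8, again beside 0.532% of all genes. These 3 were NUBP2, the partner of NUBP1, with -0.68 ± 0.19, CIAO1, the partner of MMS19 and FAM96B, with -0.79 ± 0.15, and NDOR1, the partner of CIAPIN1, with -0.74 ± 0.06 (SD over 3 conditions). CIAO1 and NDOR1 are named after their values were seen. Of the 9 genes, CIAPIN1 had 0.04 ± 0.19, MMS19 -0.13 ± 0.10, FAM96B -0.07 ± 0.05 and NUBP1 -0.29 ± 0.12. Among 17 further mitochondrial factors 9 were lower in screen 2 in all 3 conditions and 2 were higher, beside 23.9% and 22.3% of all genes, and 0 were lower by over 0.5.

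Of these 25 further assembly factors, 4 were low in every library, beside 9.72% of all genes that are not olfactory receptors. FDX1L (-1.67 ± 0.11), the ferredoxin that brings electrons to the scaffold, and BOLA3 (-1.17 ± 0.10), a late transfer factor, were the 2 mitochondrial ones. NUBP2 (-1.50 ± 0.39) and NARFL (-1.10 ± 0.26), a cytosolic factor that passes the cluster to the targeting complex, were the 2 cytosolic ones (SD over 6 libraries). The medians were -0.78 over the mitochondrial list and -0.71 over the cytosolic list, both above the median of -1.12 over the 9 genes. BOLA2 and BOLA2B on the cytosolic list are near-identical copies, so their values are uncertain.

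Among the proteins that receive the clusters, the counts differed by compartment. Of 23 genes for nuclear and cytosolic iron-sulfur proteins 8 were low in every library, and their median was -0.70. They included ELP3 (-1.77 ± 0.38), the catalytic subunit of the Elongator complex that modifies tRNA, POLD1 (-1.60 ± 0.17) and POLE (-1.12 ± 0.29), the catalytic subunits of replicative DNA polymerases, and DNA2 (-1.55 ± 0.23), a nuclease and helicase of replication. The others were the repair glycosylase NTHL1 (-1.49 ± 0.18), the helicases DDX11 (-1.45 ± 0.09) and ERCC2 (-1.22 ± 0.33), and ABCE1 (-1.22 ± 0.29), which recycles ribosomes (SD over 6 libraries). DDX11 has close copies in the genome, and whether its gRNAs match them was not checked. Of 15 genes for mitochondrial iron-sulfur proteins, most of them subunits of the respiratory chain, 0 were low in every library, and their median was -0.44. Beside the same 9.72%, the nuclear and cytosolic share was 34.8% and the mitochondrial share 0%. These lists are short, their genes have other functions besides holding a cluster, and no test was made on them.

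**Figure D4:**
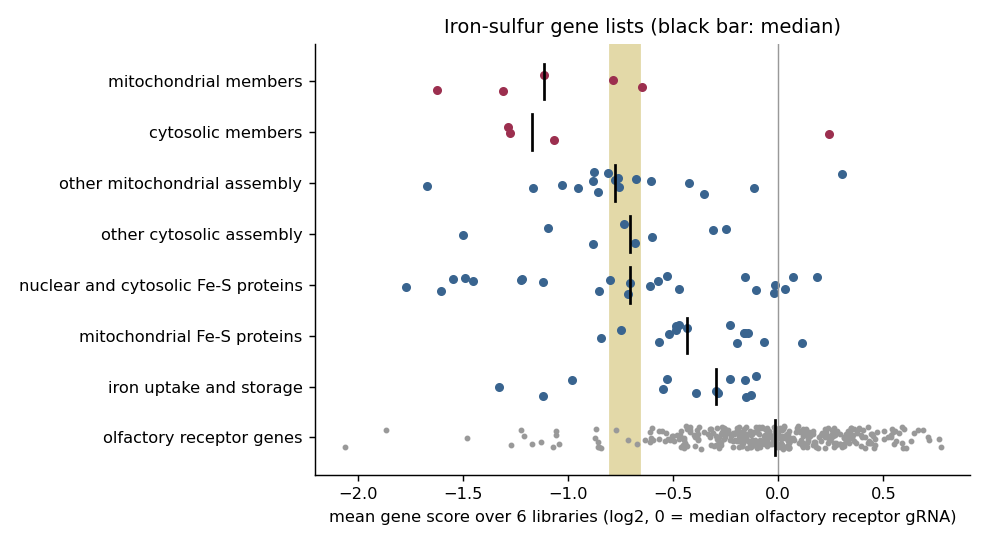
Mean gene score over 6 libraries (log2, 0 marks the median olfactory receptor gRNA) for each gene of the lists, with a black bar at the list's median and a band over the range of the olfactory receptor limit. The medians ran from -1.17 for the 4 cytosolic genes and -1.12 for the 5 mitochondrial genes to -0.44 for mitochondrial iron-sulfur proteins and -0.30 for iron uptake and storage.

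The study compared coculture with and without nivolumab to find genes whose loss makes cancer cells more sensitive to the antibody. For the 9 assembly factors no difference passed the test in any comparison. In limma, fitted on the gene scores of all 19364 genes with Benjamini-Hochberg adjustment, 0 genes (0%) passed an adjusted p of 0.05 between nivolumab and coculture, between coculture and cells alone, or between nivolumab and cells alone. At an unadjusted p under 0.05 limma gave 211 genes (1.09%), 246 (1.27%) and 264 (1.36%) in that order, and 0 of the 9 genes in each. This fit counts the difference between the screens as spread, so its p-values run large. With the replicate number as a block limma gave 4.54%, 4.98% and 5.20% of genes, and 2, 1 and 0 of the 9. The 3 comparisons share their libraries and are not independent. The medians over the 9 genes were 0.05, -0.02 and 0.06, beside 0.00, -0.00 and -0.00 over all genes.

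The intervals were wide in the fit without a block, which has no term for the screen. Between nivolumab and coculture the 95% interval of the log2 fold change ran from -0.79 to 0.97 for HSCB, whose libraries split by screen, and from -0.17 to 0.28 for FAM96B, the steadiest gene. With the replicate number as a block the same intervals ran from -0.10 to 0.28 for HSCB and from -0.13 to 0.24 for FAM96B. Each interval holds the differences that its fit left compatible with these libraries, without adjustment for the number of genes. A p above the threshold does not show that the conditions had equal values.

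GLRX5 and NUBP1 had the largest values between nivolumab and coculture. The log2 fold change of GLRX5 was -0.27 (standard error 0.23, limma adjusted p = 1.00), with -0.25 in screen 1 and -0.28 in screen 2. In screen 1, however, only 1 of its 4 gRNAs was lower with nivolumab, and in screen 2 it was 3 of 4. When each gRNA was first centred on its own mean over the 6 libraries, so that the score followed the changes of single gRNAs, the value of GLRX5 was 0.01, so the lower score rested on which gRNAs formed the median. NUBP1 had 0.23 (standard error 0.15, limma adjusted p = 1.00), with 0.19 in screen 1 and 0.27 in screen 2 and 1 and 0 of 4 gRNAs lower, and 0.16 after centring. With the replicate number as a block the unadjusted p from limma was 0.00705 for GLRX5 and 0.0215 for NUBP1, and the adjusted p was 0.999 for both.

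NFS1 had opposite values in the screens. Its score with nivolumab was lower than in coculture by 0.41 in screen 1 (difference -0.41) and higher by 0.27 in screen 2, a log2 fold change of -0.07 (standard error 0.23, limma adjusted p = 1.00) that was 0.08 after centring. In screen 1 it ranked 35 from the lowest of all genes. The gRNAs did not move as one there, with 2 of 4 lower and differences from -0.88 to 0.58. NFS1_4 had 343 normalized reads in coculture and 185 with nivolumab, whereas NFS1_3 had 168 and 249.7. NFS1 was the only one of the 9 genes below the mean minus 2 SD of all genes in screen 1, beside 2.32% of all genes, and 0 of the 9 were below it in screen 2, beside 2.44%. The remaining 6 genes had log2 fold changes from -0.03 (CIAPIN1) to 0.10 (LYRM4).

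Between coculture and cells alone the values ran from -0.07 for NUBP1 to 0.19 for GLRX5, and between nivolumab and cells alone from -0.13 for NFS1 to 0.17 for NUBP1. After centring the gRNAs, the GLRX5 value between coculture and cells alone was -0.07 and the NFS1 value between nivolumab and cells alone was 0.13, so both signs changed with that setting. The NUBP1 values after centring were 0.03 and 0.19. With the replicate number as a block the unadjusted p of GLRX5 from limma was 0.0461 and its adjusted p 0.974. Between the screens, 6, 2 and 3 of the 9 genes kept the sign of their difference in the 3 comparisons (nivolumab against coculture, coculture against alone, nivolumab against alone), beside 49.6%, 49.6% and 50.3% of all genes. The shares over the 9 genes thus lay on both sides of those over all genes.

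**Figure D5:**
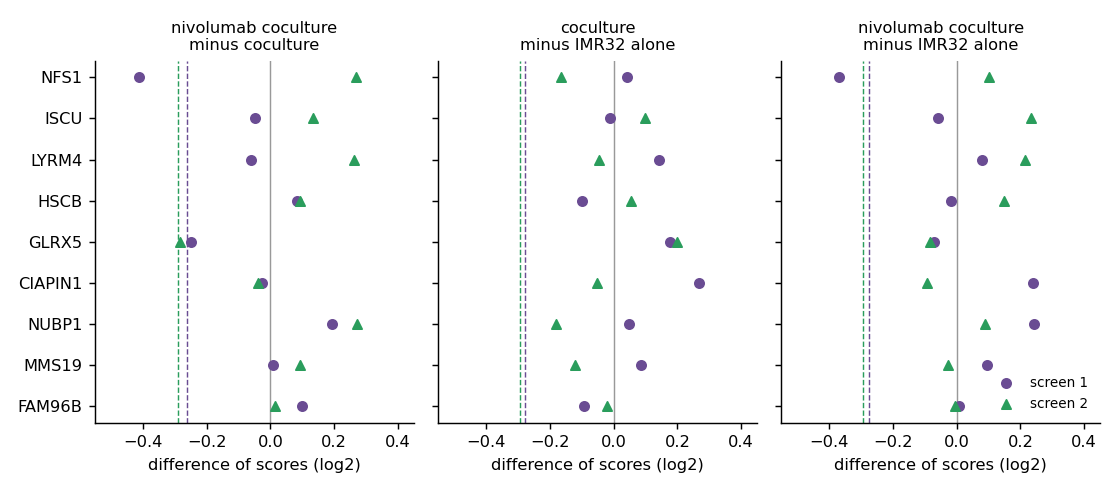
Difference of gene scores (log2) between conditions for the 9 genes, within screen 1 (circles) and screen 2 (triangles), 1 panel per comparison. The dashed lines mark the mean minus 2 SD of all genes in each screen, which NFS1 passed with -0.41 in screen 1 of the first panel while it had 0.27 in screen 2.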

How the data were processed

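Normalized reads per gRNA, a signal with the same total in every library, were made and deposited by the authors. The study's methods and the submitters' notes name MAGeCK, and the methods also name UMI lineages. The MAGeCK version, the mismatches allowed and any collapsing of UMIs are not given in the sources used here, so reads may not be independent molecules. Every value was a whole multiple of a step (largest gap 9.09e-13), assumed to be 1 read for the depth only. All 6 columns were used.

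A pseudocount of 1 was added before the log2 in Python 3.11.15 (numpy 2.4.6, pandas 2.3.3), which understates changes of rare gRNAs, and limma 3.58.1 in R 4.3.3 was fitted to the scores of all genes and libraries without a block. The code was tested on simulated data. Figures used matplotlib 3.10.9. Positions are from GENCODE v44 on GRCh38, and the files name no build. Libraries were grouped by their treatment labels. The study calls its screens independent and names a transduction in duplicate. How the duplicates map to the screens is not stated in the sources used here. The p-values measure the spread between these libraries, which includes the difference between the screens. Libraries with the same number came from the same screen and, in coculture, the same donor, and their deviations from the condition means correlated at 0.49 to 0.50 across genes. The genes and lists were chosen with earlier results of these data known. Named were the 9 genes and those genes of 5 further lists that were low in every library. CIAO1, NDOR1, BOLA2, BOLA2B and the lowest olfactory receptor genes are named besides, after their values were seen. Alternatives were another pseudocount, a filter, other scalings, other ways to combine gRNAs, a trend, a replicate block and leaving out libraries.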

Additional observations from a re-analysis of the deposited data

Results flagged for a closer look

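CIAPIN1, the cytosolic electron carrier, had differences of opposite sign in the 2 screens between nivolumab coculture and cells alone. Its score difference was 0.24 in screen 1, with 1 of 4 gRNAs lower, and -0.09 in screen 2, with 3 of 4 gRNAs lower. The screens thus differed by -0.33 (screen 2 minus screen 1). Opposite signs were common in this comparison. Only 50.3% of all genes, and 3 of the 9 assembly factors, kept their sign between the screens. The gap of NFS1 was wider than that of CIAPIN1, at 0.47, with -0.37 in screen 1 and 0.10 in screen 2. These differences were not tested.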

How the results depend on the processing

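Of 77 alternative values of the main results 73 were counted as the same, meaning within 1 SD over libraries for a score and within 1.5 times for a count. Among these, the mean over gRNAs gave a median score of -1.25 and a mitochondrial minus cytosolic difference of 0.01 (against 0.07). Scaling to the median of all gRNAs moved the median score of the 9 genes from -1.12 to -0.90, and the 1st percentile as the limit moved the count of low genes from 6 to 0. Between coculture and cells alone, 0 called genes became 1 with the mean over gRNAs and 1 with centred gRNAs together with a replicate block, and neither was one of the 9 genes. With the replicate block alone limma called 0 genes in each of the 3 comparisons, while 879, 965 and 1006 genes had an unadjusted p under 0.05 against 211, 246 and 264, with 2, 1 and 0 of the 9. The block changed no call. Leaving out each library in turn gave medians of -1.17 to -1.05 and mitochondrial minus cytosolic differences of 0.04 to 0.11. A mean over 6 libraries cannot move by 1 SD when 1 is left out. Those differences and the scores of single genes there counted as the same by construction. The count of low genes stayed at 6. Its rule asks for every library, so leaving 1 out could not lower it. Scaling to the median of all gRNAs shifts scores and limit alike and could not change it either. For single genes, 8 of 90 abundance values moved by over 1 SD and 0 changed sign, and 0 of 405 values between conditions had an adjusted p under 0.05. Centring the gRNAs, an alternative chosen after seeing the data, kept the sign of 6, 3 and 8 of the 9 genes in the 3 comparisons. No count test was run, since the deposited values are not counts and too few were low for reads to be recovered by the rule set for it.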

Other observations

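Of 13 genes of iron uptake and storage, 3 were below the olfactory receptor limit in every library, beside 9.72% of all genes that are not olfactory receptors, and the median score of the list was -0.30. PCBP1, a chaperone that delivers iron to ferritin, had a mean score of -1.33 ± 0.14. FTH1, the ferritin heavy chain, had -1.12 ± 0.17, and SLC11A2, an iron transporter, had -0.98 ± 0.07 (SD over 6 libraries). FTH1 has close copies in the genome, and whether its gRNAs match them was not checked. Of the 13 genes, 1 was lower in screen 2 than in screen 1 in all 3 conditions and 4 were higher, beside 23.9% and 22.3% of all genes, and the median difference over the list was 0.02.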
